A study of Homo sapiens with 12 samples.

Results

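The interferon-induced genes described here are IFIT1, IFIT2, IFIT3, IFIT5, OAS1, OAS2, OAS3, OASL, ISG15 and RSAD2. They were taken by symbol and are 10 of the 60604 genes in the count table. The set was chosen by measured values, namely the log2 fold changes between the groups of these same libraries, in which IFIT2 and ISG15 had stood out. Differences of these 10 genes between groups are therefore given as descriptions without p-values. P-values are printed only for other genes, whose lists were also put together with earlier results known. RNA was sequenced from HEK293T, a human embryonic kidney line carrying the SV40 large T antigen, in 12 libraries. There were 3 groups of 4 libraries, from 2 experiments on separate batches of cells with 2 technical replicates each. Cells of the first group got no plasmid, and the labels call them non-transfected in one place and treated with transfection reagents in another. Cells of the second group got the plasmid labelled sgRNA-dCas9-VP160-P2A-EGF, which encodes a Cas9 without nuclease activity joined to the viral activator VP160. Cells of the third group got that plasmid with 6 guide RNAs (gRNAs) for CD34, a gene of blood progenitors and endothelium. Transfection was with lipofectamine 2000 and 5.4 pmol of plasmid in all for 48 h. Since a plasmid lacking dCas9-VP160 was given to none of the groups, the effects of plasmid DNA and of the protein cannot be told apart. All groups are 1 cell line.

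Interferons are secreted proteins made when a cell senses foreign nucleic acid. Their receptors act through JAK kinases and STAT proteins on promoters that hold an interferon-stimulated response element (ISRE), and several of the same promoters can be driven directly by interferon regulatory factors (IRFs). IFIT proteins bind viral or otherwise unusual RNA and can restrain translation. OAS enzymes are switched on by double-stranded RNA and make 2-5A, a small signalling molecule, whereas OASL has no such enzyme activity and works with the RNA sensor RIGI. ISG15 is a ubiquitin-like protein that is joined to other proteins, and RSAD2 (viperin) makes an antiviral nucleotide.

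The gene positions are those of GENCODE v29 on GRCh38. IFIT2 (89283694 to 89309276), IFIT3 (89327894 to 89340971), IFIT1 (89392546 to 89406486) and IFIT5 (89414586 to 89421001) lie in this order on the plus strand of chromosome 10. OAS1 (112906777 to 112933222), OAS3 (112938352 to 112973249) and OAS2 (112978395 to 113011723) form a second cluster on the plus strand of chromosome 12, and OASL lies apart on its minus strand (121019111 to 121039242). ISG15 (1001138 to 1014540) is on chromosome 1 and RSAD2 (6865806 to 6898239) on chromosome 2, both on the plus strand.

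RefSeq promoter windows (GRCh38.p14, from 250 bases before to 50 bases after a transcription start) were found for 7 of the 10 genes, 9 windows in all. No window was used for IFIT2, OAS2 and OASL. The core of the ISRE, the letters GAAA, any 2 bases and GAAA again, was searched on both strands with overlapping matches allowed. It stood in 7 of the 9 windows, belonging to 6 genes, and in 3.57% of all 35116 windows in the table. The stretches that hold the matches, each with 15 bases on either side, are shown because genes that were higher in transfected cells and genes that were lower both carry them. They are written 5′ to 3′ on the plus strand with the matches in capitals, and a match on the minus strand reads as TTTC, 2 bases and TTTC.
ISG15 (chr1:1013369-1013414): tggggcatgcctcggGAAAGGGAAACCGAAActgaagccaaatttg
RSAD2 (chr2:6877617-6877656): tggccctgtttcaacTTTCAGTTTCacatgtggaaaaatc
IFIT3 (chr10:89327826-89327899): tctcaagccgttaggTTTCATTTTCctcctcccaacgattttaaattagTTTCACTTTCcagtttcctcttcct
IFIT3 (chr10:89332420-89332502): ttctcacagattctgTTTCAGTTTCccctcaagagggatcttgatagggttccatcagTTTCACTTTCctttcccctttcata
IFIT1 (chr10:89392492-89392544): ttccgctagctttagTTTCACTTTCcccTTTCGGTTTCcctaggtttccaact
IFIT5 (chr10:89414508-89414588): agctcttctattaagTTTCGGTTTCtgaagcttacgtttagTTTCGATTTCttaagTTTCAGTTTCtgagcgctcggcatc
OAS3 (chr12:112938316-112938486): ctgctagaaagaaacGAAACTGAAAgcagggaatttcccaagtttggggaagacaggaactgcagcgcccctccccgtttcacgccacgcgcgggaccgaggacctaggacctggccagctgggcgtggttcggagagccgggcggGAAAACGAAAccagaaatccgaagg
In ISG15 the matches overlap, the first beginning 113 bases and the second 107 bases before the start. IFIT3 has matches in the windows of both its starts. The 3 matches of IFIT5 begin between 45 and 4 bases before its start, and the 2 of IFIT1 at 116 and 103 bases before it. OAS1 and the first of the 2 RSAD2 windows held no match to these letters. The shorter GAAANNGAA, which every longer match contains, stood in 8 of the 9 windows and in 8.11% of all windows. Letters of NF-kB sites (GGG, any 5 bases, CC) stood in 3 of the 9 and 58.7% of all, and letters of AP-1 sites (TGANTCA) in 1 of the 9, that of IFIT5, and 7.71% of all. A match describes the letters only and was not tested as a binding site.

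Each library held between 6750035 and 11932244 counts of genes, with between 26115 and 28418 genes detected. CD34, the guides' target, had 0.774 to 1.02 CPM (read counts relative to the TMM-adjusted library total, on the usual counts-per-million scale) with dCas9-VP160 alone and 94.5 to 107 CPM with guides. All 11 HEK293 line markers had counts in every library (summed 1868 to 2286 CPM). Of 10 immune cell markers 7 were at 0 counts in at least 1 library. The sum of all 10 was 57.8 to 67.5 CPM without plasmid, 42.8 to 48.1 CPM with dCas9-VP160 and 44.3 to 52.2 CPM with guides. A single marker reached 629 counts in a library, where the sum of all 10 was at most 688, so this sum mainly follows that marker. Mitochondrially encoded genes took 8.31% to 8.78% of gene counts without plasmid and 5.14% to 5.63% with dCas9-VP160. With guides they took 5.57% and 5.59% in the libraries numbered replicate 1, against 7.50% and 7.44% in those numbered replicate 2. The part of these differences in the results below was not tested. In such bulk libraries, fewer responding cells and less RNA per cell cannot be told apart.

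The genes were far from equally expressed in cells without plasmid. Per kilobase of annotated exon, IFIT5 was highest at 15.1 ± 1.4 CPM per kb (SD, n = 2 experiments, as for all levels), followed by OAS3 at 7.63 ± 1.19, ISG15 at 3.91 ± 0.35 and IFIT1 at 2.58 ± 0.41 CPM per kb. IFIT3 had 1.04 ± 0.20, RSAD2 0.611 ± 0.100 and IFIT2 0.384 ± 0.024 CPM per kb. OAS1 (0.0822 ± 0.0015), OAS2 (0.0286 ± 0.0177) and OASL (0.0146 ± 0.0207 CPM per kb) were close to absent. Neighbours in that order had no overlap between their 2 experiments, except OAS2 and OASL. With dCas9-VP160 ISG15 reached 12.8 ± 0.3 CPM per kb, a level whose experiments overlapped those of IFIT5 at 13.1 ± 1.5. IFIT2 moved up to 2.24 ± 0.01 and stood above IFIT3 at 2.09 ± 0.14 and IFIT1 at 1.63 ± 0.25 CPM per kb. With guides IFIT5 (13.4 ± 1.4), ISG15 (13.2 ± 0.9) and OAS3 (11.9 ± 2.0) overlapped, and IFIT2 followed at 4.70 ± 1.23 CPM per kb.

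**Figure D1:**
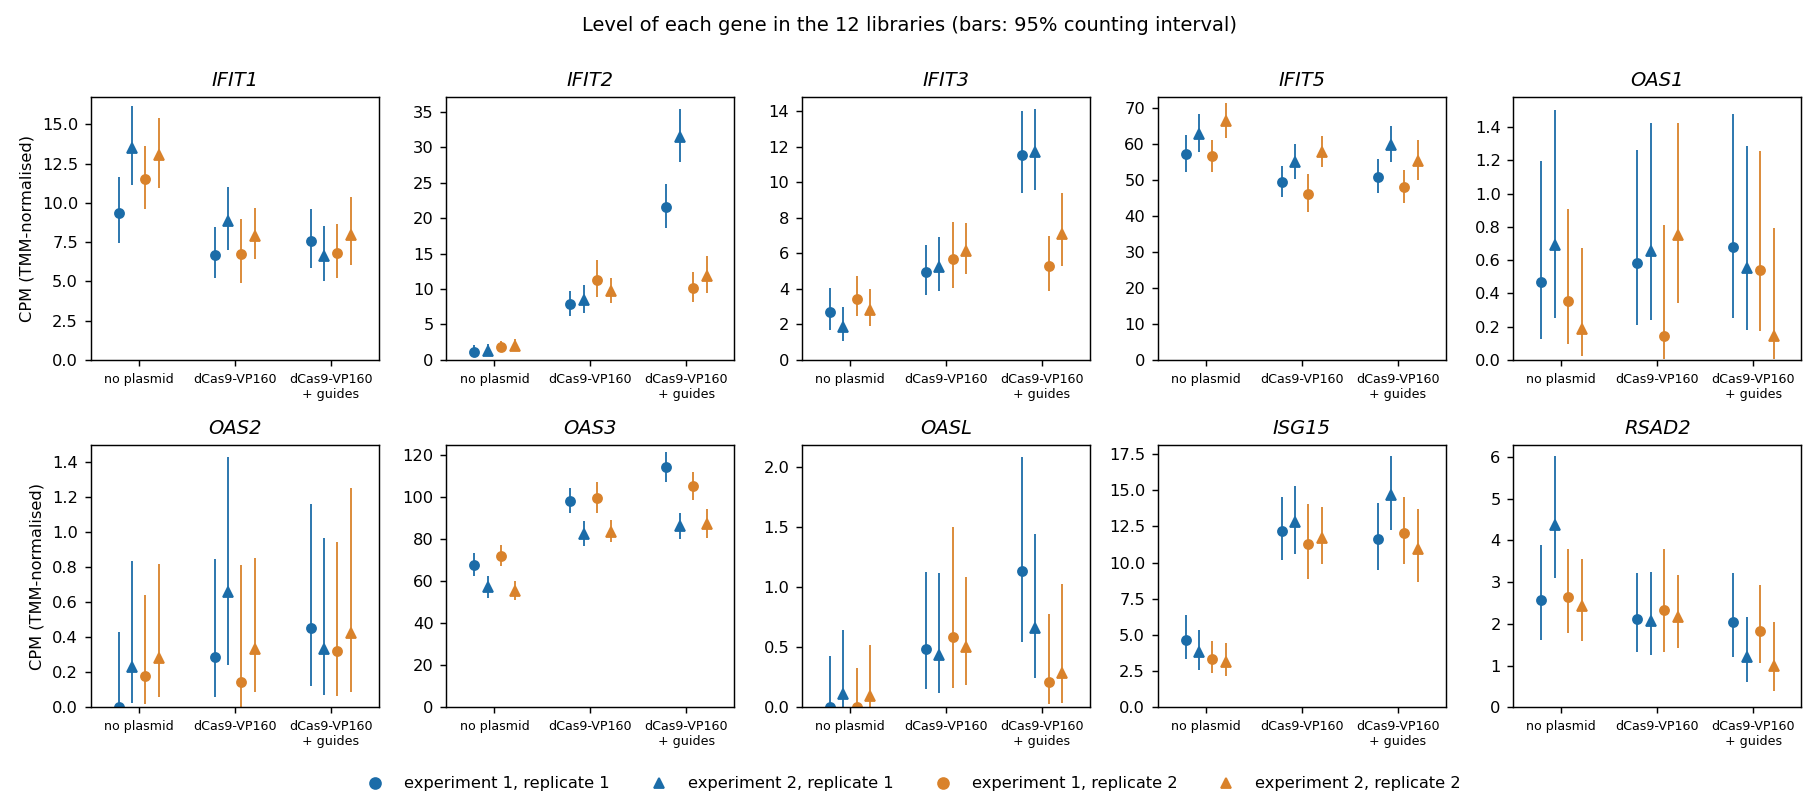
CPM of each of the 10 genes (vertical axes, starting at 0, with their own scales) in the 4 libraries of each group; points are libraries, bars are 95% exact Poisson intervals that cover counting error only, symbols mark the experiment and colours the replicate number. ISG15 is at 3.16 to 4.68 CPM without plasmid and at 11.0 to 14.7 CPM in all 8 transfected libraries, whereas IFIT2 with guides splits by replicate number.

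The first comparison asks which genes differed when cells received dCas9-VP160 without guides. Of the 9 genes that passed the filter on low counts, 5 were called higher (IFIT2, IFIT3, OAS3, OASL and ISG15), 2 were called lower (IFIT1 and IFIT5), and OAS1 and RSAD2 were not called. OASL passed the filter only through the groups where it is high, and under a stricter filter that leaves it out 4 were called higher. A call is an adjusted p under 0.05 in edgeR's quasi-likelihood test, and OAS2 was not tested. Across all 19662 genes tested 51.2% were called (26.6% higher and 24.6% lower), so calls were common in this comparison. The median log2 fold change of the 9 genes was 0.53, and that of all genes tested was -0.0020. The genes had been named with this contrast known, so nothing further is read from these counts.

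IFIT2 had 1.17, 1.77, 1.27 and 1.95 CPM in the 4 libraries without plasmid, named here and below in the order experiment 1 replicates 1 and 2, then experiment 2 replicates 1 and 2. With dCas9-VP160 it had 7.84, 11.3, 8.41 and 9.66 CPM. Every transfected library lay above every library without plasmid, and the log2 fold change was 2.53 (SE 0.19, 5.76-fold). It was 2.52 within experiment 1 and 2.40 within experiment 2, and a fit on experiment 2 alone did not call it (2.46, SE 0.92). That fit took technical replicates as replicates and gave all 3 groups, those with guides included, a shared spread.

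IFIT3, the partner that joins IFIT1 and IFIT2 in complexes, had 2.69, 3.45, 1.84 and 2.79 CPM without plasmid and 4.93, 5.70, 5.24 and 6.16 CPM with dCas9-VP160. The groups did not overlap, and the log2 fold change was 1.01 (SE 0.18), a rise of 2.01-fold.

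IFIT1, which recognises RNA with an unmodified cap or 5′ triphosphate, moved the other way. It had 9.36, 11.5, 13.5 and 13.0 CPM without plasmid and 6.67, 6.73, 8.85 and 7.91 CPM with dCas9-VP160. All transfected libraries lay below all libraries without plasmid, with a log2 fold change of -0.66 (SE 0.12). IFIT5, which binds 5′ phosphorylated RNA including tRNA, was also called lower, by a small amount (log2 fold change -0.21, SE 0.06). Its 57.2, 56.6, 62.8 and 66.4 CPM without plasmid overlapped the 49.5, 46.2, 55.0 and 57.9 CPM with dCas9-VP160 across experiments, and within each experiment the groups stood apart. The IFIT5 call was lost without the experiment term in the model, with DESeq2, in experiment 2 alone and in the replicate 1 libraries alone. The 4 IFIT genes of one chromosomal cluster thus had 2 members higher and 2 lower.

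ISG15 had 4.68, 3.36, 3.80 and 3.16 CPM without plasmid and 12.2, 11.3, 12.8 and 11.7 CPM with dCas9-VP160. The groups stood well apart, the log2 fold change was 1.70 (SE 0.14, 3.26-fold), and it was 1.56 and 1.79 in the 2 experiments.

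OAS3, by far the most abundant OAS transcript, had 67.7, 71.9, 56.9 and 55.4 CPM without plasmid and 98.1, 99.4, 82.1 and 83.4 CPM with dCas9-VP160. The groups did not overlap, and both were lower in experiment 2. The log2 fold change was 0.53 (SE 0.05, 1.45-fold), and within the experiments it was 0.49 and 0.56.

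The other OAS genes were at the limit of detection, where 3 counts correspond to 0.250 to 0.439 CPM depending on the library. OASL had 0, 0, 1 and 1 counts without plasmid and 5, 4, 4 and 6 counts with dCas9-VP160. The group totals of 2 and 19 counts gave a normalised ratio of 9.73 with a 95% exact interval of 2.35 to 86.2, which covers counting error only. OAS1 had 16 and 22 counts in all (ratio 1.41, interval 0.707 to 2.87), and OAS2 had 7 and 14 (ratio 2.05, interval 0.774 to 6.00), so a difference was not detectable for them at this depth.

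RSAD2 had 2.57, 2.65, 4.38 and 2.42 CPM without plasmid and 2.13, 2.34, 2.08 and 2.16 CPM with dCas9-VP160. Its libraries did not overlap but it was not called (log2 fold change -0.44, SE 0.24). In all, the libraries of 7 of the 10 genes did not overlap between these groups, 5 above and 2 below, and 37.1% of all genes tested did not overlap (19.4% above and 17.7% below).

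**Figure D2:**
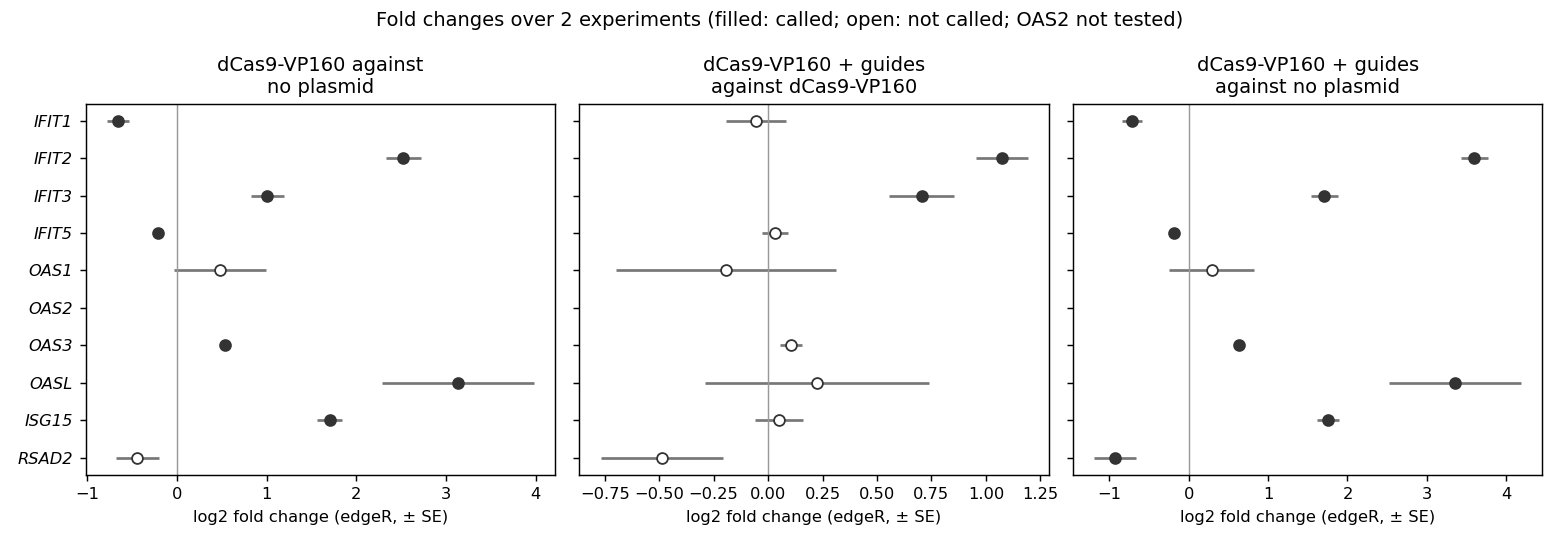
Log2 fold changes of the edgeR fit (horizontal axes, with separate scales) with approximate SE over 2 experiments for the 9 tested genes, in 3 comparisons; filled points were called and open points were not. For dCas9-VP160 against no plasmid, IFIT2 (2.53) and ISG15 (1.70) stand far to the right and IFIT1 (-0.66) to the left. OASL (3.13, SE 0.85) stands furthest right there but rests on 19 and 2 counts. With guides against dCas9-VP160 only IFIT2 and IFIT3 are filled.

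The authors' deposited table lists 97 genes and holds 2 of the 10, IFIT2 and ISG15. In the authors' deposited table IFIT2 has a log2 fold change of 2.58 for dCas9-VP160 and 3.60 for dCas9-VP160 with guides, both against control. For ISG15 the authors' deposited table gives 1.68 and 1.72. The statistics of the authors' deposited table equal the distance of the log2 fold change from 1 divided by its SE, so the table's p-values concern changes beyond that size.

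The second comparison asks what the 6 guides added to dCas9-VP160. Of the 9 tested genes 2 were called higher, IFIT2 and IFIT3, none was called lower and 7 were not called. Across all genes tested 7.56% were called (4.16% higher and 3.41% lower). The median log2 fold change was 0.05 over the 9 genes and -0.0040 over all genes. Under the stricter filter that leaves OASL out 2 were also called higher. The genes had been named with the fold changes between these groups known, so nothing further is read from these counts. Without the experiment term in the model 1 gene of 19662 was called higher in place of 817, and neither IFIT2 nor IFIT3 was called.

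IFIT2 had 21.5, 10.1, 31.4 and 11.8 CPM with guides, against 7.84, 11.3, 8.41 and 9.66 CPM with dCas9-VP160 alone. The groups overlapped, because the 2 guide libraries numbered replicate 1 were high and the 2 numbered replicate 2 lay at the level of dCas9-VP160 alone. The log2 fold change over all libraries was 1.07 (SE 0.12), with 0.76 in experiment 1 and 1.32 in experiment 2. It was 1.70 from the replicate 1 libraries and 0.08 from the replicate 2 libraries. Technical replicates were summed before this fit, so the SE here and for IFIT3 below leaves out the split by replicate number.

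IFIT3 had the same split, with 11.6, 5.27, 11.7 and 7.12 CPM with guides. Its log2 fold change over all libraries was 0.70 (SE 0.15), with 0.66 in experiment 1 and 0.74 in experiment 2. From the replicate 1 libraries it was 1.18, and from the replicate 2 libraries 0.02. With the 2 guide libraries numbered 1 left out, the log2 fold changes were 0.26 for IFIT2 and 0.15 for IFIT3 and neither was called. Leaving out the guide library of experiment 1 replicate 1 by itself also ended both calls (0.89 and 0.50), and leaving out that of experiment 2 replicate 1 ended the call of IFIT3 (0.50) and brought IFIT2 to 0.62.

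**Figure D3:**
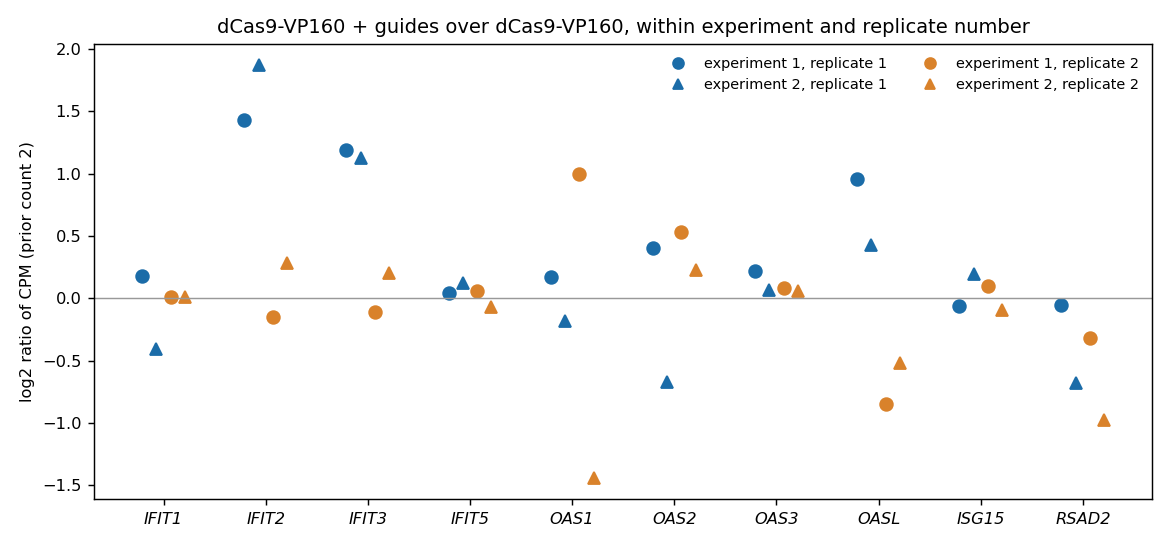
Log2 ratio of CPM (vertical axis, prior count 2) of dCas9-VP160 with guides over dCas9-VP160 for each of the 10 genes, within each experiment (symbols) and replicate number (colours). The replicate 1 points of IFIT2 and IFIT3 lie above 1 in both experiments and their replicate 2 points lie near 0; OAS1, OAS2 and OASL rest on few counts.

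Replicate 1 over replicate 2 was then compared within each group. With guides IFIT2 was 2.41-fold higher in replicate 1 (2.13-fold in experiment 1 and 2.66-fold in experiment 2), and IFIT3 was 1.90-fold higher (2.19-fold and 1.64-fold). The 95% counting intervals of the replicate 1 libraries lay above those of the replicate 2 libraries for both genes. Both were called in this comparison, beside 28 of 19662 genes called in all (0.142%). OASL had 10 and 6 counts in the replicate 1 libraries and 2 and 2 in the replicate 2 libraries, and was not called. ISG15, with a ratio of 1.14, OAS3, with 1.04, IFIT5, with 1.07, and IFIT1, with 0.963, were not called either. By the size of this log2 ratio IFIT2 ranked 16th and IFIT3 65th of 16716 genes with a mean of at least 1 CPM. In the other groups IFIT2 was not called, with a replicate 1 over 2 ratio of 0.657 without plasmid and 0.803 with dCas9-VP160. There edgeR called 0 genes in either group, with 1514 and 1309 genes at an unadjusted p under 0.05, against 1557 with guides.

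The effect of the guides itself differed between the replicate numbers by 1.58 (SE 0.24) on the log2 scale for IFIT2, which was called in that test. For IFIT3 it differed by 1.16 (SE 0.30), which was not called. The test paired equal replicate numbers of the 2 groups, although the labels call the replicates technical and do not say what a number stands for. Part of the difference comes from dCas9-VP160 alone, where replicate 1 over 2 was -0.32 for IFIT2 and -0.23 for IFIT3, neither called. With guides it was 1.27 and 0.93. The test called 10 genes (0.0509%), IFIT2 among them. This split was noticed in the same libraries, so these values describe it. The mitochondrial share divided the guide libraries in the same way, whereas CD34 had 107 and 97.9 CPM in replicate 1 and 97.5 and 94.5 CPM in replicate 2. The part of the mitochondrial share in the IFIT2 and IFIT3 values was not tested. The technical replicates differed by more than sampling noise in every group and experiment (chi-square of 1.84 to 4.37 per degree of freedom), most in the guide libraries of experiment 1.

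**Figure D4:**
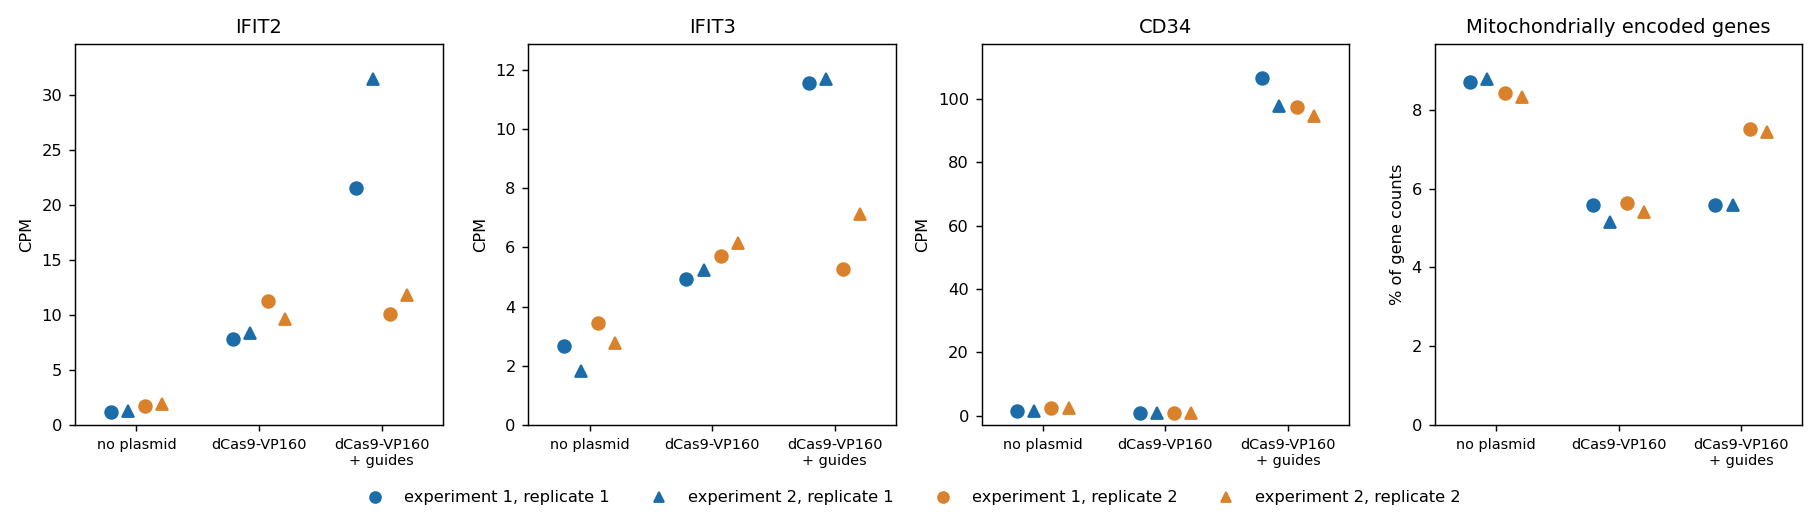
CPM of IFIT2, IFIT3 and CD34 and the share of gene counts from mitochondrially encoded genes (vertical axes) in each library, by group, experiment (symbols) and replicate number (colours). Within the guide group IFIT2 and IFIT3 are higher and the mitochondrial share is lower in both replicate 1 libraries, while CD34 lies between 94.5 and 107 CPM in all 4.

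None of the other members tested was called with guides against dCas9-VP160. ISG15 had 11.7, 12.1, 14.7 and 11.0 CPM with guides, a log2 fold change of 0.05 (SE 0.11). OAS3 had 113.9, 105.1, 85.9 and 87.1 CPM, a log2 fold change of 0.11 (SE 0.05). IFIT1 was at -0.06 (SE 0.14) and IFIT5 at 0.03 (SE 0.06) on the same scale. RSAD2 had 2.04, 1.83, 1.21 and 0.996 CPM with guides and was the one gene whose libraries did not overlap with those of dCas9-VP160 alone, all lying below (log2 fold change -0.49, SE 0.28). The nearest libraries of the 2 groups had 2.04 and 2.08 CPM, from 18 and 19 counts, a gap within counting error. Of all genes tested 8.5% did not overlap between these groups, 4.46% above and 4.04% below. OASL had 20 counts with guides and 19 without, and OAS1 had 17 and 22.

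Against no plasmid, the cells with guides had 5 of the 9 genes called higher, 3 called lower and 1 not called, where 52.6% of all genes were called (26.7% higher and 25.9% lower). This comparison shares its libraries with both of the others. The genes had been named with its fold changes known, and under the stricter filter that leaves OASL out 4 were called higher. Nothing further is read from these counts. The log2 fold changes were 3.60 (SE 0.17) for IFIT2, 1.75 (SE 0.14) for ISG15, 1.71 (SE 0.17) for IFIT3 and 0.64 (SE 0.05) for OAS3. For OASL the ratio of counts was 11.5 (95% exact interval 2.79 to 101, which covers counting error only). IFIT2 against no plasmid was 4.32 from the replicate 1 libraries and 2.48 from the replicate 2 libraries, and the latter is close to its value for dCas9-VP160 alone. IFIT3 against no plasmid was 2.30 from the replicate 1 libraries and 0.93 from the replicate 2 libraries. These values also pair equal replicate numbers. Without plasmid, replicate 1 over 2 was -0.61 for IFIT2 and -0.46 for IFIT3 on the log2 scale, neither called. IFIT1 was lower by a log2 fold change of -0.71 (SE 0.13), RSAD2 by -0.93 (SE 0.26) and IFIT5 by -0.18 (SE 0.06). The RSAD2 value was -0.42 in experiment 1 and -1.47 in experiment 2, and the call was lost in experiment 1 alone, in the replicate 2 libraries alone and with DESeq2. The IFIT5 call was lost in 7 of 26 alternatives. The libraries of 8 genes did not overlap between these groups, 6 above and 2 below, and 38.9% of all genes tested did not (19.9% above and 19% below). The 6 include OASL, at few counts, and OAS2, which was not tested and so is outside that share. OAS2 had 0, 2, 2 and 3 counts without plasmid and 4, 3, 3 and 3 with guides, a gap within counting error.

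An interaction term in a fit on all 12 libraries tested whether the responses changed from one experiment to the other. No tested member was called in any of the 3 comparisons. The spread in this fit was that of technical replicates, not of batches. For dCas9-VP160 against no plasmid the SE on the log2 scale was 0.11 for OAS3, 1.43 for IFIT2 and 2.13 for OASL. A change between experiments could therefore have gone uncalled, above all where the SE was large. Over all genes edgeR called 2, 0 and 3 for dCas9-VP160 against no plasmid, guides against dCas9-VP160 and guides against no plasmid (0.0102%, 0% and 0.0153%). At an unadjusted p under 0.05 there were 1001, 814 and 778 genes.

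Some of these genes share exon bases with others, and the library kits do not mark the strand, so their values are uncertain to that extent. IFIT2 overlaps LIPA, a lysosomal lipase on the opposite strand, which had 109 ± 2 CPM without plasmid, 83.2 ± 6.5 CPM with dCas9-VP160 and 91.8 ± 5.0 CPM with guides. LIPA therefore fell (log2 fold change -0.39, edgeR adjusted p = 1.76e-07) where IFIT2 was higher. RSAD2 overlaps CMPK2, the mitochondrial nucleotide kinase on the opposite strand, which fell with dCas9-VP160 (-0.71, edgeR adjusted p = 5.05e-05) and with guides (-0.71, edgeR adjusted p = 6.42e-05), both against no plasmid. RSAD2 lay below in all libraries of both comparisons and was called lower in the second. ISG15 overlaps the pseudogene AL645608.3, which had 0.483 ± 0.027 CPM without plasmid, 0.938 ± 0.323 CPM with dCas9-VP160 and 1.24 ± 0.35 CPM with guides. AL645608.3 was called higher with guides against no plasmid (1.34, edgeR adjusted p = 0.00908) and was not called with dCas9-VP160 (0.92). OAS1 overlaps the antisense gene AC004551.1, which had at most 1 count in a library. IFIT2 also overlaps AL353751.1, which had at most 4 counts. Next to the IFIT cluster, SLC16A12, a creatine transporter beyond IFIT5, rose from 2.36 ± 0.43 to 6.64 ± 0.90 CPM with dCas9-VP160 (log2 fold change 1.49, edgeR adjusted p = 1.33e-07). CH25H on the other side, and IFIT1B between IFIT3 and IFIT1, had at most 3 counts in any library. Beside ISG15, AGRN fell (-0.53, edgeR adjusted p = 1.56e-06) and HES4 was not called (-0.10). Around OAS1 to OAS3, RPH3A and DTX1 had at most 4 counts in a library, and beside OASL, P2RX7 was not called (0.11). Beside RSAD2 and CMPK2, RNF144A fell (-0.19, edgeR adjusted p = 0.0282) and SOX11 was not called (0.13).

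A list of 8 genes covered proteins that work with ISG15 and OAS, along with CMPK2, the nucleotide kinase gene that overlaps RSAD2. Between no plasmid and dCas9-VP160 5 of the 8 genes rose, 2 fell and 1 was not called. Of all genes 51.2% were called there (26.6% higher and 24.6% lower). UBA7, the E1 enzyme that activates ISG15, rose from 1.35 to 2.96 CPM (log2 fold change 1.13, SE 0.25, edgeR adjusted p = 4.23e-04). HERC5, the main ligase for ISG15, rose from 31.2 to 41.7 CPM (0.42, SE 0.07), and USP18, which removes ISG15 and restrains interferon receptor signalling, rose from 10.3 to 13.1 CPM (0.34, SE 0.11). UBE2L6, the E2 enzyme of the same chain, was not called. On the 2-5A side ABCE1, a ribosome recycling factor, rose from 122 to 182 CPM (0.58, SE 0.05), and PDE12, which degrades 2-5A, rose from 53.3 to 67.4 CPM (0.34, SE 0.06). CMPK2 fell from 11.0 to 6.74 CPM (-0.71, SE 0.13). With guides against dCas9-VP160 edgeR called 0 of the 8, where 7.56% of all genes were called. Against no plasmid, the cells with guides had 4 higher (ABCE1, HERC5, USP18 and PDE12) and 1 lower (CMPK2), beside 26.7% higher and 25.9% lower among all genes.

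Upstream of these genes, each interferon ligand gene stayed at 2 counts or fewer in every library, and all of them together at 3 or fewer. Of 21 interferon ligand genes 0 passed the filter and 15 had 0 counts in all libraries. With 0 counts in a library a level of up to 0.250 to 0.439 CPM is allowed. Among 18 nucleic acid sensors, adaptors and IRFs 14 were tested, and with dCas9-VP160 10 were higher and 1 was lower than without plasmid (median log2 fold change 0.48), beside 26.6% higher and 24.6% lower among all genes. The sensor of double-stranded RNA TLR3 (1.58, SE 0.20), the transcription factor IRF1 (0.96, SE 0.09) and the RNA sensor RIGI (0.81, SE 0.11) rose most, and the adaptor MAVS fell (-0.39, SE 0.04). With guides against dCas9-VP160, IKBKE (-0.58, SE 0.13) and TICAM1 (-0.40, SE 0.10) of this list fell and none rose, beside 3.41% lower and 4.16% higher among all genes. Among 16 interferon receptors and signal transducers 3 rose and 4 fell with dCas9-VP160, beside the same 26.6% and 24.6% of all genes. IFNGR1 (0.50, SE 0.06) and IFNLR1 (0.33, SE 0.09) were among those that rose, and STAT2 (-0.69, SE 0.06), JAK1 (-0.26, SE 0.05) and TYK2 (-0.18, SE 0.05) were the 3 that fell most. With guides against dCas9-VP160 IFNLR1 fell (-0.45, SE 0.09), and no other gene of that list was called, where 7.56% of all genes were called.

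Other interferon-stimulated effectors had calls in both directions. Of 57 listed genes 49 were tested, and with dCas9-VP160 against no plasmid 12 rose, 15 fell and 22 were not called (median log2 fold change 0.01), beside 51.2% called among all genes (26.6% higher and 24.6% lower). The nuclease ISG20 rose from 2.54 to 6.90 CPM (1.44, SE 0.17), and GBP3 (1.03, SE 0.35) and SAMD9L (0.97, SE 0.34) rose from levels under 1 CPM. IFI44 (-1.20, SE 0.27), IFI44L (-1.12, SE 0.15) and the virus tether BST2 (-0.82, SE 0.08) fell. With guides against dCas9-VP160 4 rose, among them TRIM22 (0.35, SE 0.10), the capsid sensor TRIM5 (0.32, SE 0.05) and SLFN11 (0.21, SE 0.04), and none fell. Among all genes 4.16% were higher and 3.41% lower there. Against no plasmid, the cells with guides had 16 of the 49 effectors higher and 13 lower, beside 26.7% higher and 25.9% lower among all genes. These were led by ISG20 (1.34), GBP3 (1.28) and SAMD9L (0.96) and by IFI44L (-1.36), IFI44 (-0.95) and BST2 (-0.78). Of the sensors and IRFs 8 were higher, with TLR3 (1.74), IRF7 (1.08) and IRF1 (1.08) first, and 2 lower, MYD88 (-0.40) and MAVS (-0.25). Of the receptors and transducers 4 were higher and 3 lower in that comparison. For both lists the shares of all genes are those given with the effectors. None of the tested genes of these partner, effector, receptor and sensor lists was called between replicate 1 and replicate 2 in any group.

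**Figure D5:**
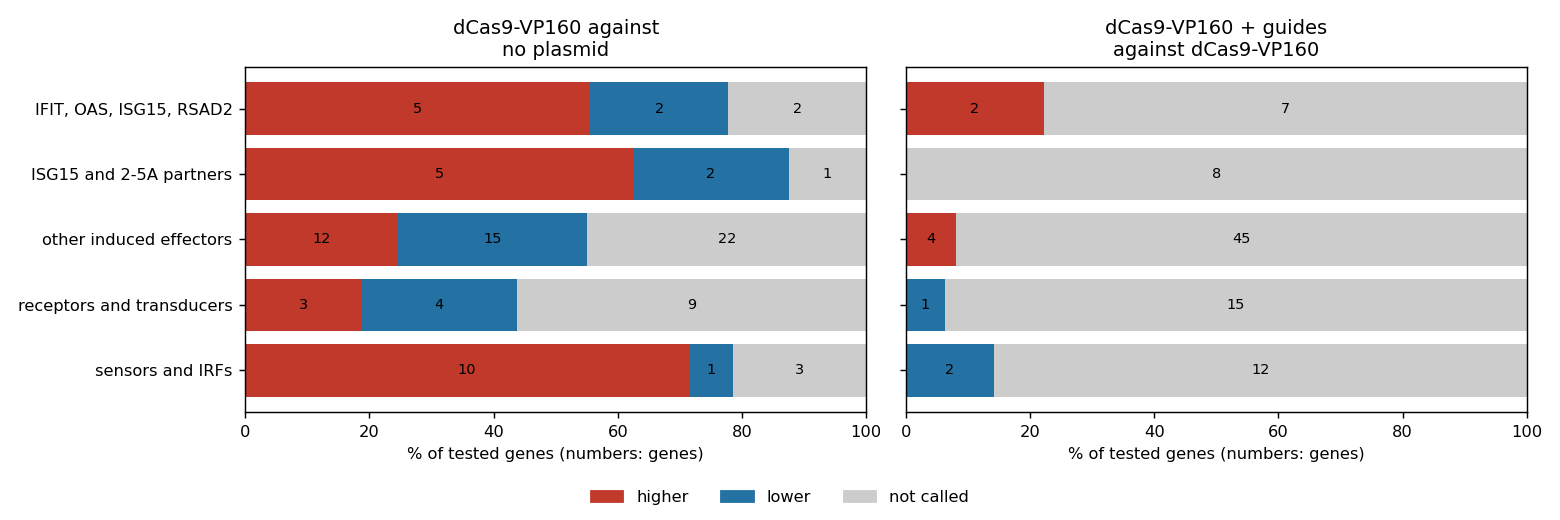
Share of tested genes (horizontal axes, percent, with numbers of genes on the bars) that were called higher, called lower or not called in each of 5 lists, for dCas9-VP160 against no plasmid and for dCas9-VP160 with guides against dCas9-VP160. The sensors and IRFs have 10 higher and 1 lower in the first comparison, the other induced effectors have 12 and 15, and few genes of any list are called in the second. Of all genes tested 51.2% are called in the first comparison and 7.56% in the second.

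The genes whose log2 CPM over the 12 libraries was most like that of IFIT2, the member with the widest range of group means on that log2 scale, were PRPF38A (Pearson r = 0.986), CD44 (0.983), ARCN1 (0.978), PPT1 (0.978) and POLH (0.977), out of 16715 genes compared. These libraries share their groups, so such values describe the pattern only. They do not measure the size of a change. PRPF38A had 124 CPM without plasmid and 157 CPM with guides, where IFIT2 had 1.58 and 19.3 CPM. CD44, a hyaluronan receptor, had 54.9 CPM without plasmid, 93.4 CPM with dCas9-VP160 and 109 CPM with guides, and its guide libraries numbered 1 (111 and 120 CPM) lay above those numbered 2 (103 and 98.6 CPM). Of the members, IFIT3 had r = 0.959 with IFIT2.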

How the data were processed

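The authors deposited raw read counts per gene, as whole numbers with 1 column per library. Per the submitters' processing notes, Trim Galore 0.3.7, STAR 2.6.0c, Picard 2.17.1, DESeq2 1.16.1 and hg38 were used. The counting program and annotation release, not given in the sources used here, could change single genes. Libraries came from 1 ng of RNA with SMART-Seq HT and Nextera XT, kits that leave the strand unmarked, although the design text speaks of directional sequencing. The authors' deposited table of 97 genes gives, per the file headers, a mean normalised signal, log2 fold changes with their SE, p-values, raw and adjusted, and their test statistic (a score). The rule by which its genes were picked, not given in the sources used here, limits its use.

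The 2 technical replicates of each group and experiment were summed to 6 libraries. The test was that of edgeR 4.0.16 under R 4.3.3 (filterByExpr, TMM, robust quasi-likelihood test) over 19662 genes, with the experiment as a block and Benjamini-Hochberg adjustment. The fit had 2 residual degrees of freedom, a median prior of 24.0 and a common dispersion of 8.88e-04, and at least 99.8% of counts were kept. Per the design text, each experiment number is 1 batch of cells shared by the groups. As a pairing check, differences between experiments correlated at 0.616 to 0.631 between groups over 12875 genes. With the experiment as a block, the difference between the 2 batches is taken out. P-values rest on how group differences varied between 2 batches of 1 cell line, and on the prior shared across genes. SE are approximate, from the log2 fold change and the F statistic, and log2 ratios within an experiment or replicate used a prior count of 2. Counts of 92 spike-in sequences were left out (0.719% and 0.404% in experiment 1 without plasmid, at most 0.00818% elsewhere).

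The genes and lists were chosen with earlier results of these data known. All 10 members are named. Of the other lists the up to 3 called genes with the largest change in each direction are named, along with the partners of ISG15 and 2-5A and the neighbours of the members. A few genes that this rule would name are not reported here. Of 60604 gene identifiers 56321 were found in the gene name table and 56812 in GENCODE v29. The fit was tested on simulated data of about the same size. For dCas9-VP160 against no plasmid (19206 genes) 97% of changes of 1 and 71% of changes of 0.5 on the log2 scale were recovered. For guides against dCas9-VP160 (19205 genes) it was 86% and 69%. Of the unchanged genes 9 and 4 were called in these 2 comparisons. Each size of change was given to 100 genes, all at a mean of at least 1 CPM, so OAS1, OAS2 and OASL are not covered. The simulated data held no difference between experiments or technical replicates, so they do not test the block or the replicate split. DESeq2 1.42.0, other normalisations and filters, 12 separate libraries, single experiments and left-out libraries were tried as alternatives. The fits on 12 separate libraries and on single experiments took technical replicates as replicates.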

Additional observations from a re-analysis of the deposited data

Results flagged for a closer look

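RSAD2 had 4.38 CPM in the library without plasmid of experiment 2 replicate 1, against 2.42 to 2.65 CPM in the other libraries of that group. The gap to the nearest library was 0.882 of the group's range, past Dixon's 95% critical value for 4 samples. In all, 30 sets of 4 libraries were looked at in this way, and chance flags about 1 in 20.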

How the results depend on the processing

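The number of members called higher with dCas9-VP160 against no plasmid was 5, and 4 to 5 over the fits that left libraries out, but 3 in experiment 2 alone. The number lower there was 2, and 1 without the replicate block, with DESeq2 and in experiment 2 alone, with a range of 1 to 2 over left-out libraries. With guides against dCas9-VP160 the 2 higher became 0 without the replicate block, in either experiment alone and without the guide libraries numbered 1, an alternative chosen after seeing the data. It became 1 with DESeq2 and 1 for 12 libraries with the replicate block of experiment and number, and 0 to 2 over left-out libraries. The number lower with guides against no plasmid was 3, and 1 with DESeq2 and in experiment 1 alone. The block changed no other count of members by over 1.5 times.

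Values near 0 with guides against dCas9-VP160 changed sign, and the cause was not tested. IFIT1 was 0.10 in experiment 1 alone and -0.12 to 0.040 over left-out libraries. IFIT5 was -0.021 without the guide libraries numbered 1 and -0.013 to 0.081 over left-out libraries, and ISG15 was -0.059 and -0.065 to 0.12 in the same settings. OAS1 was 0.12 without the guide libraries numbered 2, also chosen after seeing the data, and -0.44 to 0.10 over left-out libraries. OAS1 against no plasmid was -0.026 to 0.61 over left-out libraries.

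Over all genes, 5234 higher and 4836 lower with dCas9-VP160 became 3036 and 2528 without the block and 3417 and 2757 with DESeq2. With guides against dCas9-VP160, 817 and 670 became 1 and 0 without the block, 270 and 90 with DESeq2, 240 and 206 in experiment 1, 153 and 139 in experiment 2, 403 and 348 without the guide libraries numbered 1, and 255 to 1030 and 162 to 840 over left-out libraries. Against no plasmid, 5245 and 5102 with guides became 3229 and 2869 without the block, and DESeq2 gave 2929 lower. Depth limits OAS1, OAS2 and OASL, whose calls could be made in only some of the fits.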
